A study of Mus musculus with 23 samples.

Results

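The comparison described here is that of 1% acetophenone with controls of the same litters in mouse olfactory epithelium, 6 of the 23 libraries of the series. They are the 3 libraries labelled 1% acetophenone, from litters 3, 4 and 5, and the 3 control libraries of those litters, and each odor library was set against the control of its own litter. All came from C57BL/6 mice at postnatal day 21. In the 1% acetophenone group the mice were stimulated with acetophenone at 1% for 1 h, and in the control group they were handled as controls for the same time. No genetic change is given for either group, and the labels state neither the diluent nor how many animals, of which sex, went into a library. RNA bound to ribosomes that carry phosphorylated ribosomal protein S6 (pS6) was pulled down with an antibody from tissue homogenates and sequenced from amplified cDNA. The series also holds 2 other groups named below for their values, undiluted acetophenone (100%) and 1% TMT, a fox odor, each with controls of its own litters and of the same strain, age and exposure time.

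Odors are detected by olfactory sensory neurons, each of which expresses a single odorant receptor gene out of a very large family. When a neuron fires, kinases phosphorylate S6 on its ribosomes, so a pS6 pull-down holds more RNA from recently active cells, including the RNA of the receptor those cells carry. The question of the comparison is which receptor RNAs, and which other RNAs, were more or less abundant in the pull-down after a dilute odor. In such bulk samples a change in the number of cells of a type and a change in RNA per cell cannot be told apart.

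Unique counts, which are reads aligned to a single place, summed to 2118099, 3998370 and 3110903 in the 1% acetophenone libraries of litters 3, 4 and 5, and to 2389806, 4151769 and 3067435 in the controls of those litters. Levels are given as CPM, counts scaled to library size, after TMM scaling, which sets the libraries to a common level over most genes. The defining marker of mature olfactory neurons, Omp, was present in all 6 libraries, at 300, 1556 and 1888 CPM in the 1% acetophenone libraries and 233, 1839 and 2139 CPM in the controls. The litter 3 libraries stood apart from the others in both groups: log CPM correlated across genes at 0.951 within litter 3, at 0.902 to 0.958 between an odor and a control library of litters 4 and 5, and at 0.615 to 0.704 between litter 3 and the other litters. Library codes in the labels also differ between litter 3 and litters 4 and 5, so litter and library series cannot be told apart. Litter was therefore a term in the model, and results are also given without litter 3 where that changes a call.

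A single gene of 12077 tested passed the threshold of an adjusted p of 0.05, and it was an odorant receptor. Olfr923 rose 19.4-fold in the pS6 pull-down after 1% acetophenone. Olfr923 (protein-coding, chr9:38826545-38830300, plus strand, GRCm38) had 357, 223 and 114 counts in the 1% acetophenone libraries of litters 3, 4 and 5, against 12, 23 and 4 counts in the controls. These were 159, 62.0 and 37.2 CPM with 1% acetophenone and 4.92, 5.77 and 1.25 CPM in controls. Every odor library was above every control library, and litter 3 had the highest odor value. The log2 fold change within litters was 4.28 ± 0.34 (SE, 3 litters), with litter by litter ratios of 5.02, 3.43 and 4.89 on the log2 scale (edgeR quasi-likelihood test, Benjamini-Hochberg adjusted p = 0.0203). Of all genes tested, 0.00828% passed as higher and 0% as lower, and the next smallest edgeR adjusted p was 0.209.

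Olfr923 also stood out against the other receptors of its own library. It made up 2.32%, 2.48% and 1.41% of all odorant receptor counts in the 1% acetophenone libraries and 0.103%, 0.223% and 0.0973% in the controls. The 95% Wilson intervals, which cover counting error only, ran from 1.17 to 2.82% over the odor libraries and from 0.0378 to 0.334% over the controls, and did not overlap. Among receptors ordered by count it ranked 1, 5 and 3 with 1% acetophenone and 259, 104 and 180 in controls. The mean share was 2.07 ± 0.58% with odor and 0.141 ± 0.071% without (SD, n = 3 each), and an exact permutation test over the 6 libraries gave a 2-sided p of 0.1, the smallest this design can give. The call by edgeR depended on the model and on litter 3: the adjusted p was 0.249 without litter 3, 1.00 without litter as a term and 0.0673 with estimated counts, while the log2 fold change was 3.88, 4.42 and 4.26 in these fits. With DESeq2 in place of edgeR and the same litter term, the DESeq2 adjusted p was 2.5e-20. Over all edgeR alternatives the log2 fold change ran from 3.57 to 4.94 and the edgeR adjusted p from 1.6e-08 to 1.00.

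The other receptor examined by name, Olfr983, was also higher in every litter but did not pass in edgeR. Olfr983 (protein-coding, chr9:40086908-40093595, minus strand, GRCm38) had 86, 61 and 37 counts with 1% acetophenone, against 9, 23 and 7 counts in controls. These were 38.4, 17.0 and 12.1 CPM in the odor libraries and 3.69, 5.77 and 2.19 CPM in the controls. The groups did not overlap, with the highest odor value in litter 3 and the highest control value in litter 4. The log2 fold change was 2.39 ± 0.43 (SE, 3 litters; edgeR adjusted p = 0.291), and DESeq2 with the same litter term gave an adjusted p of 0.00462. As a share of receptor counts Olfr983 stood at 0.558%, 0.679% and 0.457% with odor and 0.0770%, 0.223% and 0.170% in controls, with an exact permutation p of 0.1, the smallest possible.

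Receptor promoters in the mouse are known for homeodomain sites, whose core is TAAT and which LHX2 and related factors bind. The promoter window of Olfr983, 250 bases before to 50 bases after its RefSeq start, is shown because it is the receptor of this pair for which the RefSeq table used here (GRCm38.p6) has an entry; it lies at chr9:40093509-40093808 and is written on the minus strand, 5′ to 3′, with TAAT, or ATTA where the core is on the other strand, in capitals.
Olfr983: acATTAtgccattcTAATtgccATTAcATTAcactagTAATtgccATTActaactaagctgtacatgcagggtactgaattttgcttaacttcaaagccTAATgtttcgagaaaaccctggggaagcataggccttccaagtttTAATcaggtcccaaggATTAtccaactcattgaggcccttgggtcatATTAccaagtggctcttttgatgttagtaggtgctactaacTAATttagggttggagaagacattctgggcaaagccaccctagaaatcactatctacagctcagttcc
The window holds 11 such cores, counted on both strands. At least 1 core was found in 58% of all 32851 windows of the same length and in 94.5% of the 948 odorant receptor windows, and 11 or more in 0.274% of all windows and 2.95% of receptor windows. The count describes the letters in the window and not binding.

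Beside Olfr923 and Olfr983, the 8 receptors with the smallest p among those higher in every litter were Olfr491, Olfr1377, Olfr1104, Olfr745, Olfr136, Olfr1222, Olfr1157 and Olfr57. None of these 8 passed in edgeR, and their log2 fold changes lay between 1.44 for Olfr1222 and 2.98 for Olfr1377. Olfr491 (chromosome 7) had 105, 276 and 74 counts in the odor libraries, against 36, 71 and 12 in controls, and the groups overlapped in neither counts nor CPM. How many of all genes tested had groups without overlap was not counted. A lack of overlap, here and for other genes named, therefore has no background share to be set against. Its log2 fold change was 2.09 ± 0.26 (SE, 3 litters; edgeR adjusted p = 0.209), and DESeq2 gave an adjusted p of 2.5e-05. Olfr1377 (chromosome 11) had 46, 45 and 52 counts with 1% acetophenone and 14, 4 and 3 counts in controls, the most even odor values of the group, and its log2 fold change was 2.98 ± 0.53 (SE, with an edgeR adjusted p of 0.291).

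For the other 6 of these 8 the groups overlapped, and in each of them the litter 3 control was above an odor library of litter 4 or 5. Olfr745 (chromosome 14), for example, had 168, 60 and 45 counts with 1% acetophenone and 54, 25 and 2 counts in controls, and its log2 fold change was 2.06 ± 0.44 (SE, with an edgeR adjusted p of 0.309). DESeq2 called Olfr745 (adjusted p = 0.0053), so that its 4 receptor calls were Olfr923, Olfr491, Olfr983 and Olfr745. Olfr136 (chromosome 17) had 137, 48 and 31 counts with odor and 34, 18 and 0 counts in controls, and Olfr1104 (chromosome 2) had 118, 32 and 5 counts with odor and 26, 10 and 0 in controls. Olfr1104 thus rested on few counts outside litter 3.

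**Figure D1:**
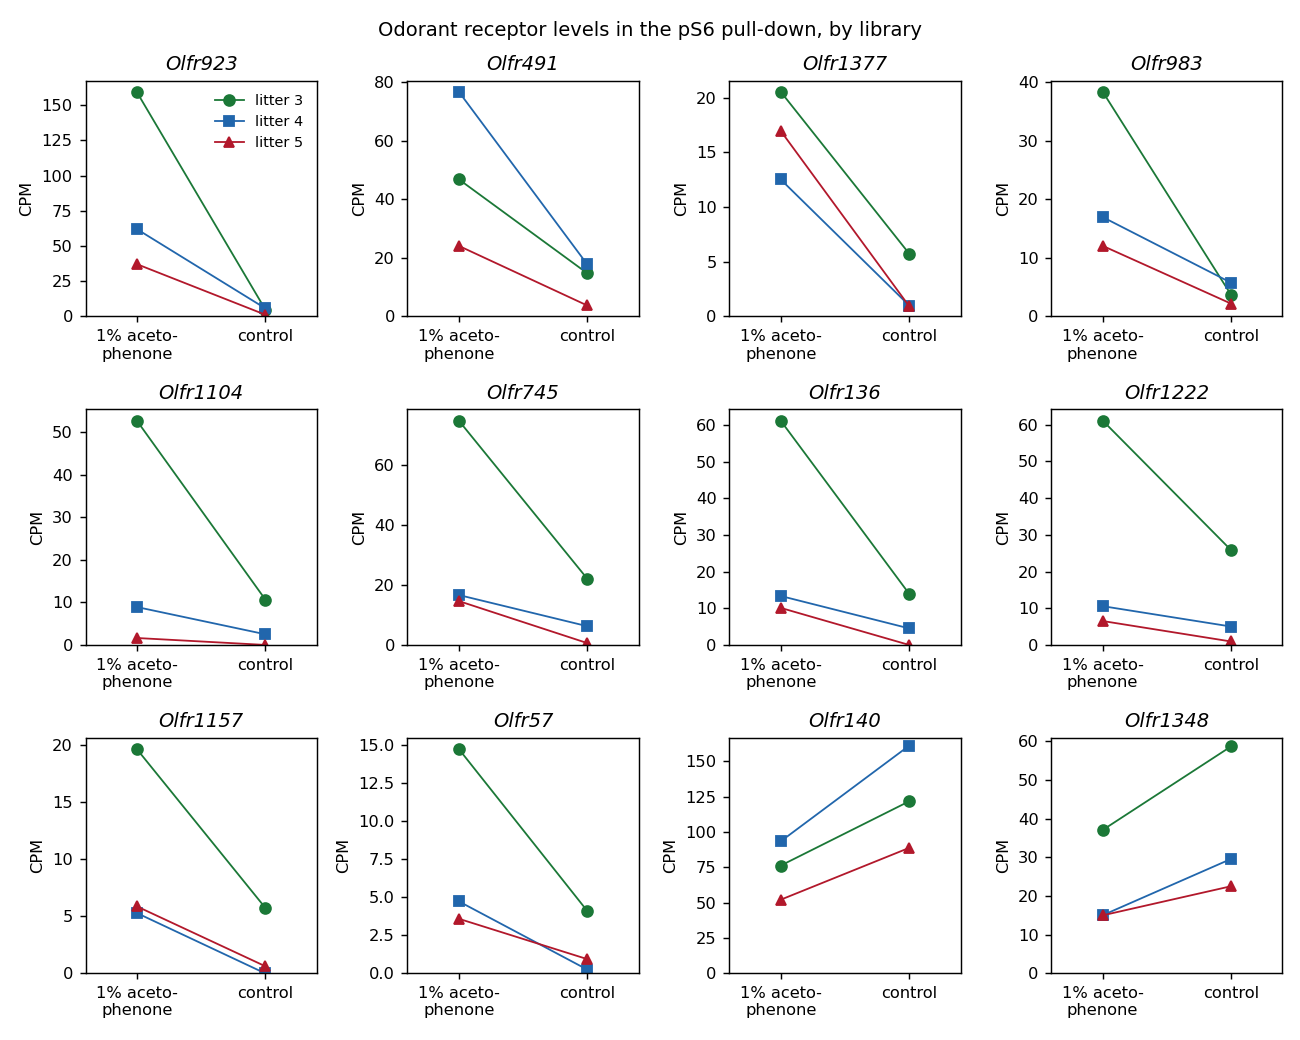
Levels of 12 odorant receptors in CPM (linear axes from 0, a scale for each panel), with 1 point per library and a line joining the 1% acetophenone library (left) to the control of the same litter (right). Olfr923, Olfr491, Olfr1377 and Olfr983 show no overlap between groups, 6 further receptors are higher in every litter with overlap, and Olfr140 and Olfr1348 are lower in every litter. The share of all receptors tested without overlap was not counted.

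Receptors that were lower after odor differed by less. The 5 with the smallest p among those lower in every litter were Olfr140, Olfr1348, Olfr1384, Olfr1349 and Olfr796, with log2 fold changes between -0.86 and -0.48, and none passed in edgeR. Olfr140 (chromosome 2), the receptor with the largest effect relative to its error among them, had 171, 336 and 160 counts with 1% acetophenone, against 297, 643 and 284 counts in controls. In CPM it stood at 76.3, 93.5 and 52.2 with odor and 122, 161 and 88.9 in controls, lower in each litter although the groups overlapped (log2 fold change -0.74 ± 0.14, SE; edgeR adjusted p = 0.291). Olfr1348 (chromosome 7) had 37.0, 15.0 and 15.0 CPM with odor and 58.6, 29.6 and 22.5 CPM in controls.

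Olfr160 and Olfr151, which encode the receptors M72 and M71 known from earlier work to respond to acetophenone, were too low in unique counts to be tested. Olfr160 had 7, 4 and 6 counts with 1% acetophenone and 1, 2 and 2 counts in controls. Every odor library was thus above every control, at counts that did not pass the filter. Estimated counts, read as also including reads that align to several places, were 19, 15 and 18 with odor and 6, 9 and 3 in controls. Olfr151 had 0 counts in all 6 libraries, which, with 3 counts as the limit, allows up to 1.42 CPM in the shallowest odor library and up to 1.26 CPM in the shallowest control, before TMM scaling. Olfr151, annotated as a polymorphic pseudogene, also had 0 estimated counts in these libraries and 0 unique counts in those with undiluted acetophenone. Whether depth, annotation or alignment kept it at 0 was not tested, so a difference in Olfr151 could not be assessed.

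Over the whole receptor family the picture was a shift of the tested members with 1 clear gene at its edge. The files list 1122 receptor symbols, of which 236 passed the filter on low counts. A receptor could pass through the libraries of either group alone, and such a receptor had to be higher in that group. Of the 236, 65 were higher in every litter (27.5%, against 16.7% of all genes tested) and 16 were lower in every litter (6.78%, against 14.9%). Their median log2 fold change was 0.48, against 0.01 over all genes tested, and 0.53 over the 263 receptors with a mean count of at least 10. The median varied with the litter left out, at 0.51 without litter 3, 0.82 without litter 4 and 0.14 without litter 5. An unadjusted edgeR p under 0.05 was reached on the higher side by 30 of these 236 receptors, against 581 of all 12077 genes tested. On the lower side it was reached by 3 of the 236, against 447 of the 12077. The filter bears on these counts as well. Without the filter the receptor median was 0.65 over 984 receptors, against 0.02 over all 18966 genes then tested.

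Base composition differed along with that shift. Transcripts of the tested receptors had a median GC content of 40.3%, against 49.9% over all genes tested, and the mean GC content of the counted RNA was lower with odor than without in each litter, at 49.1, 51.1 and 51.1% in the 1% acetophenone libraries and 49.6, 51.4 and 51.7% in controls. With each library corrected for GC content and transcript length, the receptor median was 0.08 and that of all genes -0.01. GC content and length were corrected together, so their parts cannot be told apart in this fit. Olfr923 kept its call under this correction, with a log2 fold change of 3.57 (edgeR adjusted p = 0.0124), and Olfr983 stood at 1.99.

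The share of all counts that fell on odorant receptors did not differ beyond the spread between libraries. It was 0.728%, 0.225% and 0.260% with 1% acetophenone and 0.489%, 0.249% and 0.134% in controls, higher with odor in litters 3 and 5 and lower in litter 4. The means were 0.404 ± 0.281% with odor and 0.291 ± 0.181% without (SD, n = 3 each; exact permutation p = 0.6, exact sign-flip p within litters 0.5, where 0.25 is the smallest possible). The ratio of means was 1.39, 0.835 without the odor library of litter 3 and 2.11 without the control of litter 3. Receptors with at least 1 count numbered 797, 692 and 740 in the odor libraries and 782, 703 and 456 in controls, the control of litter 5 having the fewest.

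**Figure D2:**
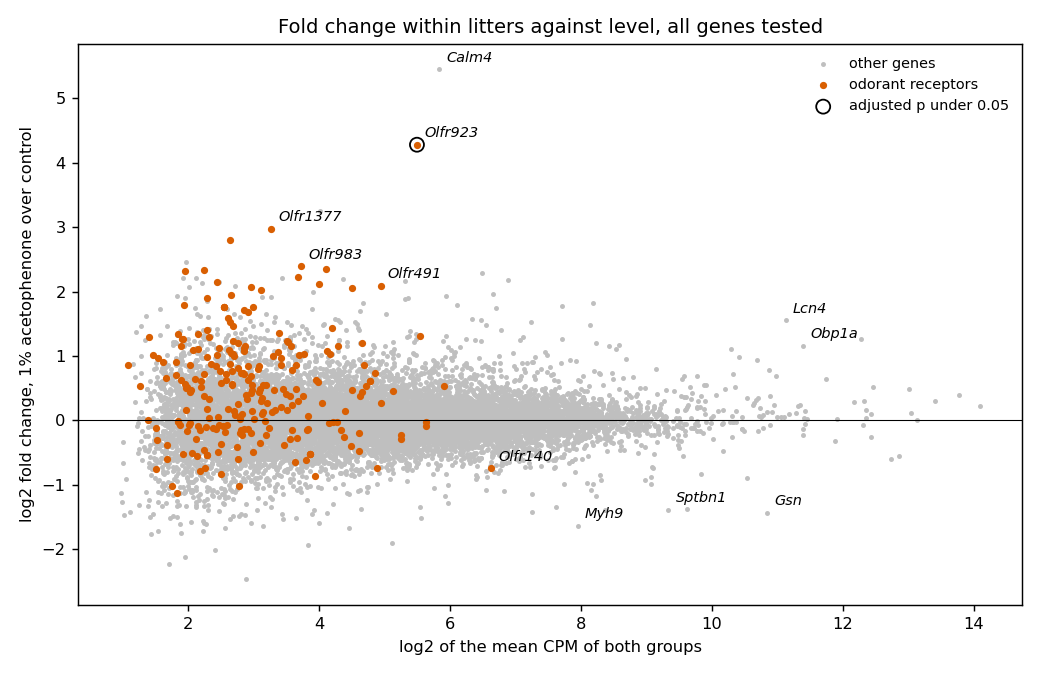
Log2 fold change within litters (1% acetophenone over control) against the log2 of the mean CPM of both groups, 1 point per gene tested, with odorant receptors in orange. The ringed point, Olfr923 at 4.28, is the single gene with an adjusted p under 0.05 in edgeR, and Calm4 lies above it at 5.45 without passing.

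The same receptors can be set beside the other dose and the other odor. With undiluted acetophenone, Olfr923 had 108, 216 and 322 counts in litters 1, 2 and 3, against 19, 35 and 12 counts in their controls, and Olfr983 had 65, 157 and 32 counts, against 18, 25 and 9. Olfr745 had 181, 1019 and 666 counts with undiluted acetophenone and 25, 128 and 54 in controls. Litter 3 is the only litter with both doses, and its control enters both comparisons; there, Olfr923 had 357 counts at 1% and 322 at 100%, while Olfr983 had 86 at 1% and 32 at 100%, and Olfr745 had 168 at 1% and 666 at 100%, in libraries of similar size.

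In the TMT experiment, whose controls are separate, Olfr923 had 12, 0, 0 and 0 counts with 1% TMT in litters 1 to 4 and 2, 1, 0 and 0 in controls. Olfr983 had 25, 0, 0 and 0 counts with 1% TMT and 0, 0, 3 and 0 in controls. Olfr745 had 61, 0, 0 and 3 with 1% TMT and 0, 1, 0 and 1 in controls. Olfr136 had 79, 2, 1 and 2 with 1% TMT and 2, 0, 0 and 0 in controls. Litter 1 thus held nearly all counts of these receptors. In TMT litters 2 to 4 all odorant receptors together made up 0.0423, 0.0460 and 0.0716% of counts with 1% TMT. In their controls they made up 0.0232, 0.03625 and 0.0326%. TMT litter 1 had 0.27% with odor and 0.121% in its control. Counts of 0 in litters 2 to 4 thus lie at a floor and say little on a response. The log2 fold change with 1% TMT was 1.85 for Olfr923, 1.86 for Olfr983, 3.65 for Olfr745 and 5.25 for Olfr136. The response to 1% acetophenone minus that to 1% TMT was tested directly: for Olfr923 it was 2.53 on the log2 scale (edgeR adjusted p = 0.999). None of 13720 genes (0%) passed in either direction by edgeR, while an unadjusted p under 0.05 was reached by 160 genes above and 422 below zero difference.

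Genes that neurons switch on with activity showed no common direction after 1 h of 1% acetophenone. Of 16 immediate early genes tested, 2 were higher in every litter (12.5%, against 16.7% of all genes tested) and 1 was lower (6.25%, against 14.9%), with a median log2 fold change of 0.00. Fos, a transcription factor of the early response, had 61.2 CPM with odor and 32.6 CPM in the control of litter 4, and 42.4 CPM with odor and 21.9 CPM in the control of litter 5. In litter 3 Fos had 2 counts in the odor library and 2 in the control, so this litter says little on it (log2 fold change 0.89 ± 0.25, SE; edgeR adjusted p = 0.430). Egr1 was not higher in every litter, with 10.7, 22.3 and 14.7 CPM with odor and 8.61, 7.52 and 16.6 CPM in controls.

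Of 12 activity-dependent genes of olfactory neurons, 1 was higher in every litter (8.33%) and 1 lower (8.33%), and none passed. The higher one was Epha5, an axon guidance receptor, with a log2 fold change of 0.62, and the lower one Kirrel2, an adhesion molecule of olfactory axons, with -0.42. S100a5, a calcium-binding protein that follows odor-driven activity in olfactory neurons, had 1849, 1697 and 1383 CPM with 1% acetophenone and 1216, 1843 and 235 CPM in controls. The control of litter 5 was far below the other 5 libraries, and in litter 4 the odor library was the lower one (log2 fold change 0.98 ± 0.45, SE; edgeR adjusted p = 0.603). The log2 fold change of S100a5 was 0.20 without litter 5 and 1.58 without litter 4. Pcdh10, an adhesion gene regulated by activity, had a log2 fold change of 0.42, which was -0.03 without litter 5.

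Markers of the olfactory neurons themselves lay close together in the groups. The 20 mature neuron markers tested had a median log2 fold change of -0.10 and summed to 5617, 8569 and 9265 CPM with odor and 5308, 9958 and 8968 CPM in controls, and none passed. The 12 immature neuron markers had a median of -0.12, with 4 lower in every litter (33.3%, against 14.9% of all genes tested) and 0 higher (against 16.7%). Basal cell markers had a median of -0.18 over 11 genes, sustentacular (supporting) cell markers 0.11 over 15 genes, and ensheathing glia markers 0.10 over 7 genes.

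Receptors of other families were few. Of 353 trace amine and vomeronasal receptor symbols, 4 were tested. The 3 vomeronasal type 1 receptors among them, which detect pheromones in the vomeronasal organ, were higher in every litter. They were 75% of the 4, against 16.7% of all genes tested. As for odorant receptors, a gene could pass the filter on low counts through the libraries of either group alone, and such a gene had to be higher in that group. Vmn1r85 had 90, 42 and 54 counts with 1% acetophenone and 36, 20 and 2 counts in controls (3.99-fold higher within litters, SE of the log2 value 0.55, edgeR adjusted p = 0.430, DESeq2 adjusted p = 0.0488). Vmn1r89 and Vmn1r51 had log2 fold changes of 2.20 and 2.08, and in CPM the groups overlapped for all 3. The 5 vomeronasal neuron markers tested, by contrast, had a median log2 fold change of 0.03 and summed to 185, 257 and 343 CPM with odor and 160, 262 and 343 CPM in controls. The trace amine receptor Taar6 had 14, 3 and 13 counts with odor and 6, 13 and 14 in controls, with no common direction.

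Outside the receptors, several genes of the actin and myosin cytoskeleton were lower after odor in every litter, without passing in edgeR. Of 13 genes for non-muscle myosin and actin crosslinkers, 9 were lower in every litter (69.2%, against 14.9% of all genes tested) and 3 higher (23.1%, against 16.7%), with a median log2 fold change of -0.82, against 0.01 over all genes tested, and -0.61 after the GC and length correction. Their sum was 1034, 1854 and 1574 CPM with 1% acetophenone and 1959, 2620 and 3744 CPM in controls, lower with odor in each litter. The gene lists, this one included, were chosen with earlier results of these data known. Shares of a list set against all genes are therefore descriptions and not tests of enrichment. Myh9, the heavy chain of a non-muscle myosin, had 70.5, 190 and 115 CPM with odor, against 329, 293 and 487 CPM in controls, with no overlap (log2 fold change -1.63 ± 0.30, SE; edgeR adjusted p = 0.291). Flna, an actin crosslinker, had 316, 166 and 186 CPM with odor and 568, 302 and 333 CPM in controls, lower in each litter with groups that overlapped (-0.85 ± 0.13, SE; edgeR adjusted p = 0.291). The kinase Rock1, which activates non-muscle myosin, was higher in each litter with overlapping groups, at 177, 48.1 and 16.0 CPM with odor and 92.3, 16.3 and 6.57 CPM in controls (1.23 ± 0.20, SE; edgeR adjusted p = 0.291).

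The 10 genes with the smallest p among those lower in every litter are named here with what each is known to do, and none passed in edgeR. Gsn, the actin-severing protein gelsolin, had 1079, 736 and 866 CPM with 1% acetophenone and 4888, 1308 and 2109 CPM in controls, with no overlap (log2 fold change -1.43 ± 0.25, SE; edgeR adjusted p = 0.291). Sptbn1, a spectrin of the membrane skeleton, had 573, 225 and 174 CPM with odor and 2004, 374 and 528 CPM in controls (-1.38 ± 0.22, SE; edgeR adjusted p = 0.291). Myh14, another non-muscle myosin, Syne2, which links the nucleus to actin, Macf1, which links microtubules to actin, and Flna were also among them, together with the kinetochore gene Cenpf, the pyrimidine synthesis gene Cad, the matrix gene Aebp1 and 2610015P09Rik. Transcript lengths ran from 2653 bases for Gsn to 23495 for Macf1. Log2 fold change fell with length over the genes tested (Spearman correlation -0.137). After the GC and length correction all 10 stayed below 0. Macf1 went from -0.82 to -0.57, Syne2 from -0.97 to -0.65 and Cenpf from -1.34 to -1.35. The part of length alone was not tested. Among these 10, the litter 4 ratio was the smallest in size for Sptbn1, Cenpf, Cad, Gsn, Syne2, Macf1 and Myh14. For Flna, Aebp1 and 2610015P09Rik it was the litter 5 ratio. Myh9, which is not one of the 10, also had its smallest ratio in litter 4.

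DESeq2 with the same litter term called 22 genes higher and 27 lower, 0.25% and 0.307% of the 8799 genes it gave an adjusted p. The 27 lower ones included Myh9, Myh14, Flna, Gsn, Sptbn1, Syne2, Cenpf, Cad, Aebp1 and 2610015P09Rik, and 5 of the 13 listed myosin and actin crosslinker genes, and the DESeq2 adjusted p was 1.5e-05 for Myh9 and 6.0e-06 for Sptbn1. The higher ones included, beside the 4 odorant receptors and Vmn1r85, Obp1a, Cabs1, Rock1, Tigd2 and Gspt1.

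Markers listed for Bowman glands, which make mucus over the epithelium, and for other secretions were mostly higher with odor. Of 19 tested, 9 were higher and 0 lower in every litter (47.4%, against 16.7% of all genes), with a median log2 fold change of 0.36 and none past the threshold in edgeR. This list too was chosen with earlier results known, so the share does not test enrichment. Obp1a, an odorant-binding protein, had 6518, 2558 and 2399 CPM with 1% acetophenone and 1983, 1247 and 1443 CPM in controls, with no overlap. Its log2 fold change was 1.16 ± 0.21 (SE, with an edgeR adjusted p of 0.291) and 0.42 after the GC and length correction. Control values of Obp1a ranged widely between litters. Before TMM scaling, the other acetophenone controls, of litters 1 and 2, had 996 and 5228 CPM. The litter 2 control was thus above the 1% acetophenone libraries of litters 4 and 5. TMT controls had 44.5, 722, 896 and 8898 CPM. With undiluted acetophenone Obp1a was below its control in litter 1 and above it in litters 2 and 3. The part of litter in the Obp1a difference was not tested. Lcn4, a lipocalin, had 2319, 5140 and 2094 CPM with odor and 1582, 2000 and 304 CPM in controls, every odor library above every control (1.55 ± 0.38, SE; edgeR adjusted p = 0.369). Slpi, a protease inhibitor of secretions, differed mainly in litter 3, with 99.5, 37.3 and 18.3 CPM with odor and 8.61, 20.8 and 10.6 CPM in controls. Gpx6, a glutathione peroxidase on this list, had a log2 fold change of 0.64.

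**Figure D3:**
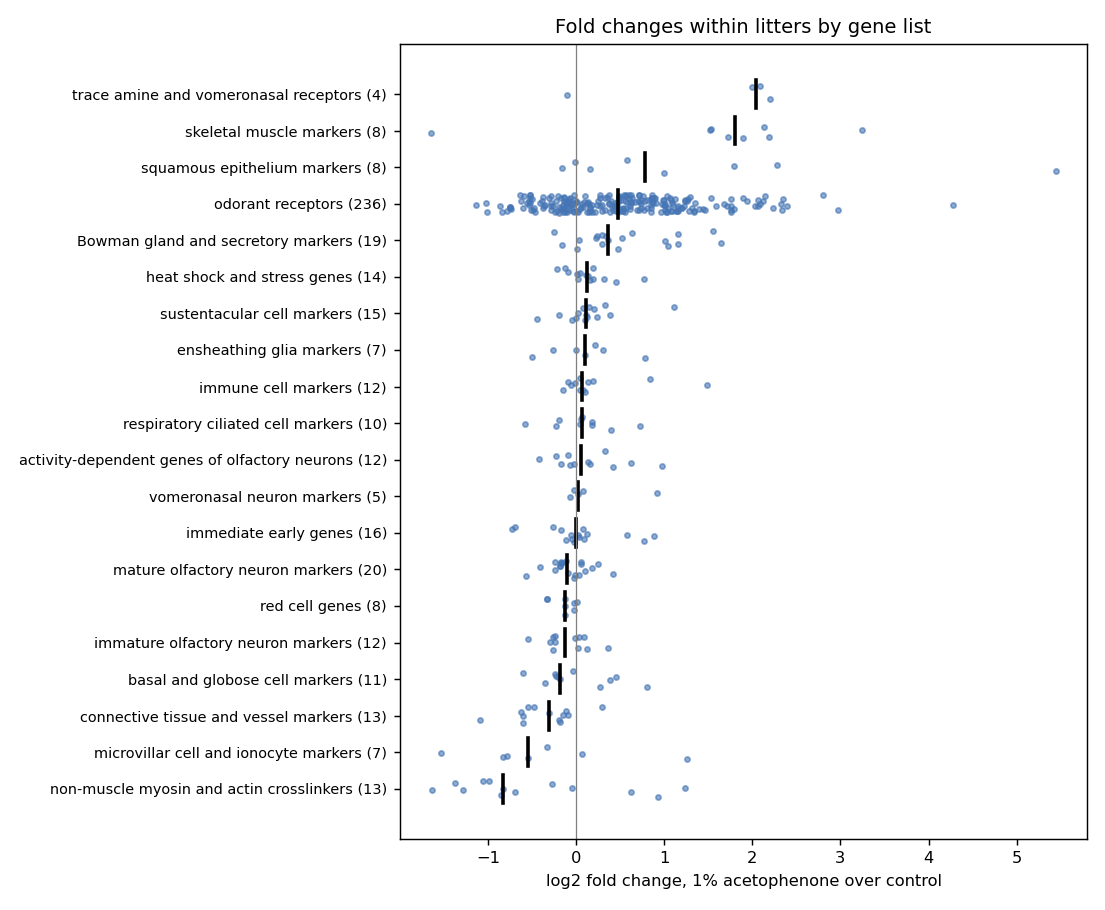
Log2 fold change within litters (1% acetophenone over control) of each tested gene, by gene list, with the number of genes in brackets and a bar at the median. The lists were chosen with earlier results of these data known. Medians run from -0.82 for non-muscle myosin and actin crosslinkers to 2.04 for the 4 trace amine and vomeronasal receptors. Those 4 passed a filter on low counts that the libraries of either group alone could satisfy.

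Several connective tissue genes were lower with odor in every litter, without passing. Of 13 tested, 6 were lower and 0 higher in every litter (46.2%, against 14.9% of all genes), with a median log2 fold change of -0.31, and the list summed to 19428, 8925 and 15217 CPM with odor and 27794, 15261 and 18455 CPM in controls. As for the other lists, members were chosen with earlier results known, so the share does not test enrichment. Col1a1, a chain of the main fibrillar collagen, had 5565, 3909 and 7013 CPM with 1% acetophenone and 8170, 7530 and 8724 CPM in controls, with no overlap (log2 fold change -0.60 ± 0.18, SE; edgeR adjusted p = 0.434). Col5a1 and Col3a1 had log2 fold changes of -0.63 and -0.48. Aebp1, a matrix protein bound to collagen, had 93.3, 49.2 and 78.6 CPM with odor and 189, 132 and 141 CPM in controls, the groups standing apart (-1.09 ± 0.16, SE; edgeR adjusted p = 0.291).

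Markers of tissues beside the olfactory epithelium also differed between the groups, with large differences between litters. The 8 skeletal muscle markers tested had a median log2 fold change of 1.81, with 3 higher in every litter (37.5%, against 16.7% of all genes tested) and 1 lower (12.5%, against 14.9%), and none passed in edgeR. They summed to 333, 432 and 47.3 CPM with 1% acetophenone and 50.4, 46.4 and 79.8 CPM in controls, higher with odor in litters 3 and 4 and lower in litter 5. The muscle list was also chosen with earlier results known, so its shares do not test enrichment. Mb (myoglobin) had 46.4, 32.3 and 12.1 CPM with odor and 10.7, 10.5 and 7.20 CPM in controls. Mb and Mylpf, a myosin light chain of skeletal muscle, were higher and Actn3, an actinin of fast muscle fibres, was lower in every litter, each with no overlap between groups. The 8 squamous epithelium markers tested had a median log2 fold change of 0.79, with 0 higher and 0 lower in every litter, and summed to 1416, 372 and 145 CPM with odor and 133, 193 and 255 CPM in controls, with Calm4 at 329, 7.51 and 0.652 CPM with odor and 5.33, 0 and 0.939 CPM in controls. Calm4 had the largest log2 fold change of the named genes, 5.45, but was not higher in every litter (edgeR adjusted p = 0.288). Without litter 5, edgeR called 18 genes higher and 1 lower, among them Calm4, Krt4 and Atp2a1, which are squamous and muscle genes, and Olfr923, Olfr491 and Cabs1. The part of tissue carried over with the dissection in the other results was not tested.

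**Figure D4:**
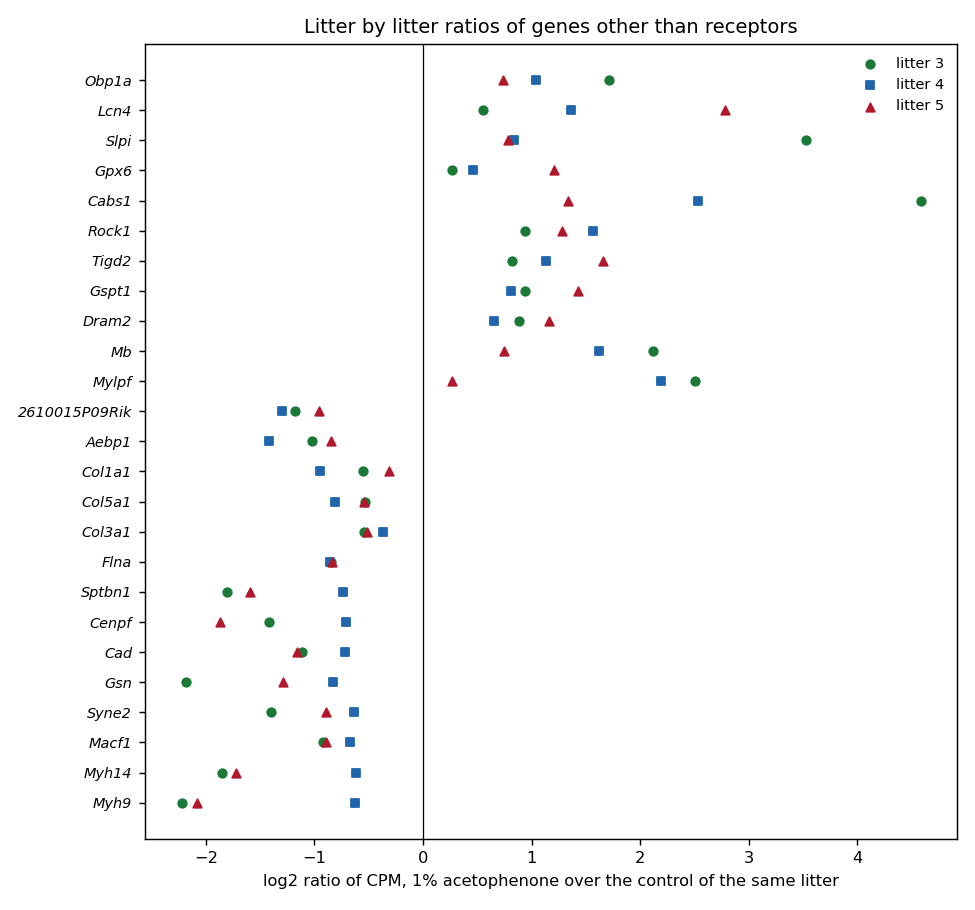
Log2 ratio of CPM, 1% acetophenone over the control of the same litter, for genes other than odorant receptors, with 1 mark per litter and a line at 0. The 11 upper genes, Obp1a to Mylpf, lie right of 0 in each litter. The genes below them, 2610015P09Rik to Myh9, lie left of 0. For Myh9 and for Sptbn1 the litter 4 mark is nearer to 0 than the marks of the other litters.

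The remaining lists had members on both sides of 0. Microvillar cell and ionocyte markers had the lowest median after the myosin list, -0.55 over 7 genes, with 2 lower (28.6%, against 14.9% of all genes tested) and 1 higher (14.3%, against 16.7%) in every litter; Avil, an actin-bundling protein of microvillar cells, had 7.14, 1.95 and 7.83 CPM with odor and 21.7, 6.02 and 21.0 CPM in controls (log2 fold change -1.53 ± 0.35, SE; edgeR adjusted p = 0.350). Avil rested on 16, 7 and 24 counts with odor and 53, 24 and 67 in controls. The list member higher in every litter was Cftr, with no overlap between groups. It had 3.12, 9.74 and 4.24 CPM with odor and 1.23, 2.76 and 2.82 CPM in controls. Its log2 fold change was 1.26 ± 0.54 (SE, with an edgeR adjusted p of 0.580), also on few counts. Respiratory ciliated cell markers had a median of 0.06 over 10 genes, immune cell markers 0.06 over 12 and red cell genes -0.12 over 8. Heat shock and stress genes had a median of 0.13 over 14 genes. In every litter 3 of them were higher (21.4%, against 16.7% of all genes tested) and 2 lower (14.3%, against 14.9%). Hspa5, an endoplasmic reticulum chaperone, had 855, 848 and 674 CPM with odor and 704, 623 and 430 CPM in controls, higher in each litter (0.46 ± 0.14, SE, edgeR adjusted p = 0.447). Hsp90ab1 was lower in each litter, with a log2 fold change of -0.22.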

How the data were processed

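Bowtie, bedtools and the build mm10 are named in the submitters' processing notes; which versions and which gene annotation the authors took is not given in the sources used here. The deposited files have no header and list 23481 gene symbols with 20 value columns. The first deposited column holds whole-number counts, read as uniquely aligned reads, and the last holds estimated counts, read as also including reads that align to several places; this reading comes from the values, which never decrease from column to column. Estimated counts were rounded and used only as an alternative, and the columns between were not used. Unique counts were 66.8 to 71.9% of the estimated counts in the 6 libraries. Coordinates, GC content and length came from GENCODE for GRCm38 (23132 symbols matched), and promoter windows from RefSeq.

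Counts were fitted in edgeR 4.0.16 (R 4.3.3; TMM, filterByExpr with a minimum count of 10, glmQLFit and glmQLFTest, 2-sided) with litter as a term, and p-values were adjusted over all genes tested by Benjamini-Hochberg, with a threshold of 0.05. The SE is the log2 fold change divided by the square root of F. The study pairs libraries by the litter named in the labels; deviations from the group means correlated across genes at 0.888, 0.735 and 0.718 between libraries of the same litter, and at -0.78 to 0.583 between different ones. DESeq2 1.42.0 and the settings in the closing section were alternatives, and the scripts were tested on simulated data. The difference between odors was fitted as a difference of differences over 14 libraries. Receptor shares have 95% Wilson intervals and exact permutation tests; intervals and limits cover counting error only, since no molecular identifiers mark independent molecules. Genes named are the markers Olfr923 and Olfr983, the genes past the threshold, the 10 with the smallest p that were higher and the 10 that were lower in every litter, the same for 10 and 5 receptors, Olfr151 and Olfr160, 5 activity or neuron genes, up to 4 of each list by p, and the 5 receptors highest in controls, of which Olfr140 is described. The gene lists, members and rules were chosen with earlier results of these data known. The rule on receptors with like proteins was not applied, because no protein sequences were used here.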

Additional observations from a re-analysis of the deposited data

Results flagged for a closer look

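In 4 of the genes named, every one of the 3 acetophenone litters had less in the 1% odor library than in its control, and every one of the 4 TMT litters had more in the 1% TMT library than in its control. Some of the genes named, Sptbn1 and Cenpf among them, were picked for being lower in every acetophenone litter. How many of all genes tested have this pattern was not counted, so whether 4 is more than a background number was not tested. The log2 response to 1% acetophenone minus that to 1% TMT was -1.86 for Sptbn1, -1.76 for Cenpf, -2.3 for Myh9 and -2.5 for Avil. The difference itself did not pass in edgeR after adjustment over all genes, with adjusted p-values of 0.386 for Sptbn1 and Cenpf, 0.451 for Myh9 and 0.999 for Avil. Myh9 had 158, 683 and 354 counts with 1% acetophenone and 802, 1167 and 1558 counts in controls of the same litters, and 166, 96, 148 and 146 counts with 1% TMT and 164, 57, 62 and 59 counts in TMT controls. The other acetophenone controls, of litters 1 and 2, had 388 and 29 Myh9 counts, so control values ranged widely between litters. The part of litter or library series in this difference was not tested.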

How the results depend on the processing

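With litter left out of the model (no replicate block), 0 genes and 0 receptors were called higher, and Olfr923 stood at 4.42 with an edgeR adjusted p of 1.00; an unadjusted p under 0.05 was then reached by 50 genes higher and 43 lower. Rounded estimated counts also gave 0 and 0, with Olfr923 at 4.26. DESeq2 called 22 genes higher, 4 of them receptors, and 27 lower. Leaving out each litter in turn, edgeR called 0 to 18 genes higher, 0 to 1 lower and 0 to 2 receptors higher, Olfr923 ranged from 3.88 to 4.94 (adjusted p 0.000406 to 0.249), and 0 to 3 genes were lower in the difference from TMT, with 3 without litter 4. Both libraries of a litter leave together in these fits. The filters, RLE and library-size scaling, the 11 acetophenone libraries and the GC and length correction kept 1 gene higher, Olfr923. Scaling to receptor counts put the median of all genes at -0.48 log2, against 0.01, and called 2 genes higher.

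S100a5, 0.98 in the full fit, ranged from 0.20 (without litter 5) to 1.58 (without litter 4). Signs turned in values that passed no test. With 1 litter left out, Pcdh10 ranged from -0.026 (without litter 5) to 0.95, Omp from -0.21 to 0.0875 (without litter 4) and Taar6 from -0.82 to 0.59 (without litter 4). Omp was 0.061 with 11 libraries and 0.028 with the GC and length correction, Taar6 was 0.13 without the block, and the difference of Olfr983 from TMT was -1.19 without the block. The ratio of receptor shares, 1.39, ranged from 0.835 to 2.11 when 1 library was left out, the lowest without the 1% acetophenone library of litter 3. Other values of named genes kept direction and side of the threshold in 699 cases and passed it in 26 more. The causes were not tested. The filter on low counts left 236 receptors to test, and 984 were tested without it.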
